A study of Homo sapiens with 12 samples.

Results

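Interferon-stimulated genes are switched on in most cell types when an interferon binds its receptor, and many of their products block steps of viral replication. The genes described here were 47 gene symbols of that kind, listed by name: the IFIT, IFITM, OAS, MX and guanylate-binding protein (GBP) families, the ISG15 system, interferon-responsive transcription factors and further interferon-induced genes. They were chosen with earlier results of these data known, so their shares below, set beside those of all genes, are descriptive. All 47 symbols were found in the deposited table, and 46 of them had at least 10 counts over the 12 libraries. The exception was BST2, with 3 counts in all. Over the whole table, 17173 of 28901 named genes reached that number.

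The samples were adipocytes derived from ASC52telo hTERT, a telomerase-immortalised line of human adipose mesenchymal stem cells, collected on day 14 of differentiation. Every library came from cells that carried a lentiviral pLVX-shRNA2 vector with the fluorescent marker ZsGreen and that had been sorted for it, so the controls were transduced cells too. The hairpin was either a scramble sequence (scramble) or one against the long intergenic noncoding RNA linc-ADAIN (linc-ADAIN KD). Each population was sequenced without lipopolysaccharide (LPS), the bacterial cell wall component that binds TLR4, or after LPS at 100 ng/mL for 4 hours, with 3 libraries in each of the 4 groups. Each hairpin was thus represented by 1 sorted population, and no second hairpin was analysed here.

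The 3 libraries of a group were triplicates of 1 experiment, so the p-values below measure the spread within that experiment. Totals ran from 28381782 to 53837400 estimated counts per library, and libraries of 1 group correlated at 0.971 to 0.986 (Pearson's r of log2 CPM across genes). Levels are given as counts per 1000000 counts (CPM) after TMM scaling, fold changes as log2 ± standard error, and adjusted p-values come from edgeR's quasi-likelihood test over all genes tested. The standard error was derived from that test, as the absolute log2 value divided by the square root of its F statistic. A gene is said to be called at an adjusted p under 0.05. In bulk RNA, fewer cells of a type and less RNA per cell cannot be told apart. The abundance of the targeted RNA, linc-ADAIN, was not analysed here.

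Interferons signal through JAK kinases to STAT proteins. Complexes that hold STAT2 and IRF9 bind the interferon-stimulated response element (ISRE), whereas STAT dimers bind the gamma-activated site (GAS) after interferon gamma. LPS can feed into the same system, because TLR4 signals through TICAM1 and TBK1 to IRF3, which induces interferon beta, and through NF-κB, which induces IRF1. Guanylate-binding proteins are large GTPases that coat intracellular bacteria and the vacuoles around them, and they belong to the most strongly interferon gamma-induced genes of many cells.

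The elements through which these factors act can be read in the promoters, and a few are shown because later results turn on these genes or, for GBP4, to set its promoter beside those of GBP1 and GBP3. The windows come from RefSeq promoters of GRCh38.p14, which span 250 bases before to 50 bases after each gene start and were at hand for 37 of the 47 genes. The other 10 genes were TRIM22, OAS2, GBP2, USP18, MX2, IFIT2, IRF7, OASL, GBP5 and IFITM2. Each window is 30 bases long, written 5′ to 3′ on the strand of its gene, and the capitals mark the matched element. The ISRE was searched as GAAANNGAAA, the GAS as TTCNNNGAA and the NF-κB element as a pattern that allows alternative letters at several positions. Each was searched on both strands. The ISRE windows are those of GBP1 (chr1:89065316-89065345, minus strand), GBP3 (chr1:89022845-89022874, minus), GBP4 (chr1:89198927-89198956, minus), IFIT3 (chr10:89332425-89332454, plus), PARP14 (chr3:122680800-122680829, plus) and DTX3L (chr3:122564322-122564351, plus). The GAS windows are those of GBP3 (chr1:89022863-89022892, minus), IRF1 (chr5:132490879-132490908, minus) and PARP14 (chr3:122680788-122680817, plus), and the NF-κB window is that of IRF1 (chr5:132490804-132490833, minus).
GBP1 ISRE: aacgaagtacTTTCAGTTTCatattactct
GBP3 ISRE: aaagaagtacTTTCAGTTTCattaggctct
GBP4 ISRE: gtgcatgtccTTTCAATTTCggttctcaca
IFIT3 ISRE: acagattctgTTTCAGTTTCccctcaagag
PARP14 ISRE: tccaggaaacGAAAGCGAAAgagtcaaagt
DTX3L ISRE: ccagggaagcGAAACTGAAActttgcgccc
GBP3 GAS: tactgagtcacTTCCTTGAAagaagtactt
IRF1 GAS: aacagcctgatTTCCCCGAAatgacggcac
PARP14 GAS: gcctgggagttTTCCAGGAAacgaaagcga
IRF1 NF-κB: ggccagggctGGGGAATCCCgctaagtgtt

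The GBP1 and GBP3 windows were identical at 25 of 30 positions, and the GBP1 and GBP4 windows at 16 of 30. These counts include the fixed letters of the searched element, which are identical by the choice of the windows. In GBP3 and in PARP14 the GAS window and the ISRE window overlapped each other. The DTX3L match was also the match of PARP9, since both genes start from the same stretch and point away from each other. An ISRE match was held by 26 of the 37 genes and by 30 of their 49 promoter windows (61.2%), against 3.57% of all 35116 promoter windows. For the GAS the figures were 12 genes and 26.5% of windows, against 7.66% of all windows. The NF-κB element was found for 9 genes in 20.4% of windows, near the 20.8% of all windows. A match is a description of the letters only. The calls below were not confined to the genes with an ISRE: of the genes tested, 4 of 25 with the element and 2 of 11 without it were called higher with LPS in scramble, and 4 of 23 and 2 of 11 in linc-ADAIN KD.

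Per kb of the canonical transcript of each gene, the levels in scramble without LPS ran over several orders of magnitude. IFITM3, which restricts the entry of enveloped viruses, was highest with 631 ± 57.5 CPM per kb (SD, n = 3), and IFITM2 followed with 123 ± 6.91. The DNA sensor IFI16 had 53.1 ± 4.80, IFI6 26.7 ± 1.81 and GBP1 22.6 ± 3.73 CPM per kb. The ranges of IFI6 (24.7 to 28.2) and GBP1 (18.4 to 25.2) overlapped, whereas those of IFITM3, IFITM2 and IFI16 did not overlap with each other or with the next gene. At the other end were several genes that are among the most inducible by type I interferon. ISG15, the ubiquitin-like modifier, had 0 counts in 10 libraries and 4 and 8 counts in the other 2. HERC5, the ligase that attaches ISG15 to proteins, had 0 to 6 counts per library, BST2 0 to 2, CMPK2 0 to 37, IFI27 0 to 30, RSAD2 (viperin) 0 to 57 and GBP5 0 to 59. In all, 41 genes reached a mean of 1 CPM in at least 1 group, and ISG15, HERC5, CMPK2, IFI27, RSAD2 and BST2 did not.

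Called genes of the set went in both directions with KD, whereas with LPS nearly all were higher. Without LPS, 11 of the 45 genes tested were higher in linc-ADAIN KD than in scramble (24.4%) and 9 were lower (20%), against 12.1% and 15.1% of all genes. With LPS, 9 of 44 were higher in KD (20.5%) and 10 lower (22.7%), against 12.7% and 14.2% of all genes. LPS raised 7 of 46 genes in scramble (15.2%, against 5.9% of all genes) and 0 were called lower (8.38% of all genes). DESeq2 too called 0 lower, and at an unadjusted p under 0.05 there were 0 lower and 19 higher. Of the 46 genes, 38 had a positive and 8 a negative log2 value. In this comparison the same-numbered libraries deviated together (r of 0.122 to 0.323), and a pairing was inferred from that. With the replicate number as a block, 11 genes were higher (9.09% of all genes), namely the 7 and GBP2, IRF7, PSMB9 and SAMD9L. In KD, LPS raised 8 of 44 (18.2%, against 5.32%) and lowered 1 (2.27%, against 6.03%). Median log2 fold changes of the set were 0.06 and 0.01 for KD without and with LPS, and 0.27 and 0.12 for LPS in scramble and in KD, beside 0.02, 0.03, 0.02 and 0.0099 over all genes.

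Changes of at least 2-fold were few. For KD without LPS they were 6 higher and 2 lower, where 4.28% and 3.49% of all genes passed. With LPS they were 3 and 2, where 4.58% and 3.9% passed. For LPS the counts were 3 and 0 in scramble (1.4% and 1.28% of all genes) and 5 and 0 in KD (1.3% and 0.946%). In the 5 tests together 28 of the 46 genes with at least 10 counts were called at least once (60.9%), against 39% of all genes. The 20 genes called for KD without LPS and the 19 called with LPS had 13 in common, all in the same direction except GBP2. Of the 7 and 9 genes called for LPS in scramble and in KD, 5 were common to both: IFIT3, GBP3, STAT2, IRF1 and PARP14. The same overlaps over all genes are not given here, so no conclusion is drawn from either overlap.

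**Figure D1:**
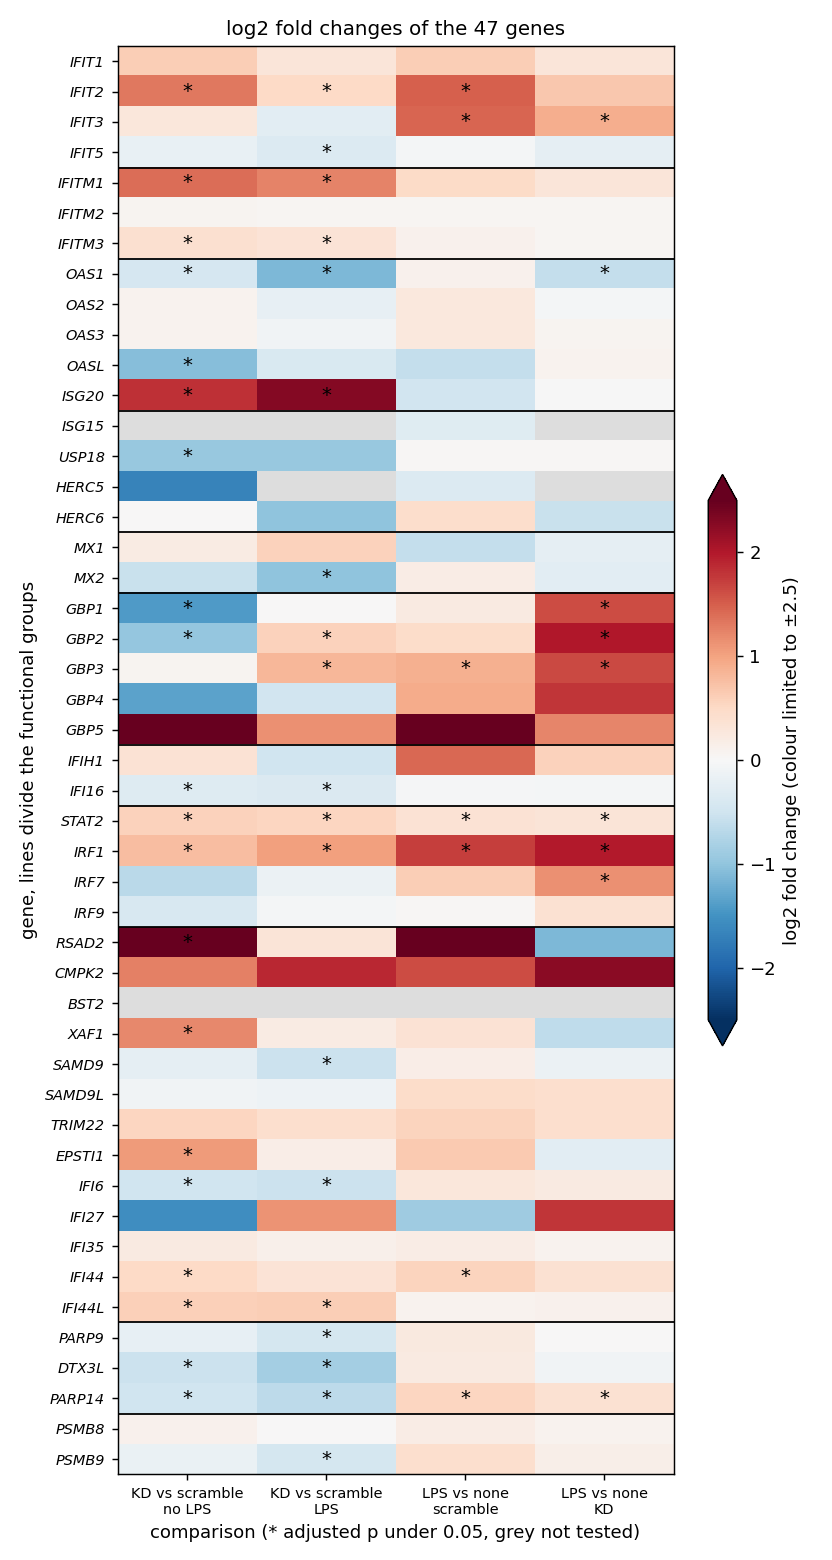
Log2 fold changes of the 47 genes (rows, divided by functional group) in the 4 comparisons (columns), red for higher and blue for lower, with an asterisk where the adjusted p was under 0.05 and grey where a gene was not tested. In the GBP rows, LPS in KD has 3 called rises and KD without LPS has 2 called falls (5.32% and 15.1% of all genes). In both LPS columns, 5 rows (IFIT3, GBP3, STAT2, IRF1 and PARP14) carry an asterisk.

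The clearest changes were those of the guanylate-binding proteins, whose 5 genes here lie beside one another on the minus strand of chromosome 1 between 89006679 and 89272860 (GRCh38, GENCODE release 44). Their summed level was 86.8 to 127.75 CPM in scramble, 128.24 to 161 CPM in scramble with LPS, 53.6 to 58.6 CPM in KD and 178 to 199 CPM in KD with LPS. The KD libraries were thus lowest without LPS and highest with it.

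GBP1, the founding member of the family and a sensor of bacterial LPS in the cytosol, had 52.9, 72.6 and 70.3 CPM in the scramble libraries and 25.1, 23.9 and 24.3 CPM in the KD libraries. With LPS it had 67.5, 72.2 and 86.4 CPM in scramble and 70.3, 72.4 and 85.2 CPM in KD. Every KD library without LPS lay below every other library, and the 2 groups with LPS overlapped throughout. The difference between KD and scramble was -1.41 ± 0.12 without LPS (adjusted p = 3.6e-06) and 0.01 ± 0.11 with LPS (adjusted p = 0.97). LPS changed GBP1 by 1.64 ± 0.10 in KD (adjusted p = 5.2e-08) and by 0.22 ± 0.13 in scramble (adjusted p = 0.29). The LPS effect differed between the populations by 1.43 ± 0.17 (adjusted p = 0.00024, interaction over all 12 libraries).

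GBP2 showed the same arrangement with a higher end point. Its levels were 20.8, 31.1 and 39.1 CPM in scramble, 17.4, 15.2 and 13.8 CPM in KD, 34.4, 48.4 and 42 CPM in scramble with LPS and 60.7, 60.0 and 64.4 CPM in KD with LPS. KD libraries were the lowest without LPS and the highest with it, and neither pair of groups overlapped. The difference between KD and scramble was -0.97 ± 0.19 without LPS (adjusted p = 0.0026) and 0.57 ± 0.11 with LPS (adjusted p = 0.0021), the only one among the genes called in both comparisons that changed sign. LPS raised GBP2 by 1.99 ± 0.11 in KD (adjusted p = 1.6e-08), whereas in scramble, with overlapping libraries, the value was 0.47 ± 0.19 (adjusted p = 0.14). With the replicate number as a block, the rise in scramble was called too (0.50 ± 0.11, adjusted p = 0.0020). The interaction was 1.54 ± 0.24 (adjusted p = 0.0024).

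GBP3, whose protein assembles with GBP1 on bacteria, differed from its neighbours in that KD and scramble overlapped before LPS. It had 11.9, 13.4 and 16.5 CPM in scramble and 15, 14.5 and 14.0 CPM in KD, rising to 23.6, 24.3 and 29.2 CPM in scramble with LPS and to 43.8, 46.6 and 46.3 CPM in KD with LPS. All LPS libraries lay above all others, and those of KD above those of scramble. LPS raised GBP3 by 0.89 ± 0.14 in scramble (adjusted p = 0.0011) and by 1.65 ± 0.10 in KD (adjusted p = 6.4e-08). The KD difference was 0.06 ± 0.14 without LPS (adjusted p = 0.80) and 0.82 ± 0.11 with LPS (adjusted p = 6.0e-05). The interaction of 0.77 ± 0.17 was past the threshold only narrowly (adjusted p = 0.032), and its adjusted p was 0.06 to 0.085 in the 10 of 12 fits that lost it when single libraries were left out, the exceptions being the fits without scramble replicate 1 and without scramble LPS replicate 3.

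GBP4 was low, with 6 to 107 counts per library. It had 1.06, 1.39 and 1.68 CPM in scramble, 0.173, 0.613 and 0.815 CPM in KD, 2.45, 2.94 and 2.37 CPM in scramble with LPS and 1.10, 2.30 and 2.18 CPM in KD with LPS. The groups did not overlap in any of the 4 comparisons, but none reached the threshold, with 0.92 ± 0.30 for LPS in scramble (adjusted p = 0.064) and 1.79 ± 0.60 in KD (adjusted p = 0.077). GBP5, an activator of the NLRP3 inflammasome, had 0 to 7 counts in scramble and 0 to 29 in KD without LPS. With LPS it had 10 to 36 counts in scramble and 19 to 59 in KD, where the groups with and without LPS overlapped. It was not called in any test. Of the 31-base stretches of the canonical transcript, 26.8% were shared with other genes for GBP1 (18.3% with the pseudogene GBP1P1), 14.1% for GBP4, 11.9% for GBP3, 5.12% for GBP5 and 4.36% for GBP2, so reads of GBP1 in particular could be divided differently by another counting.

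**Figure D2:**
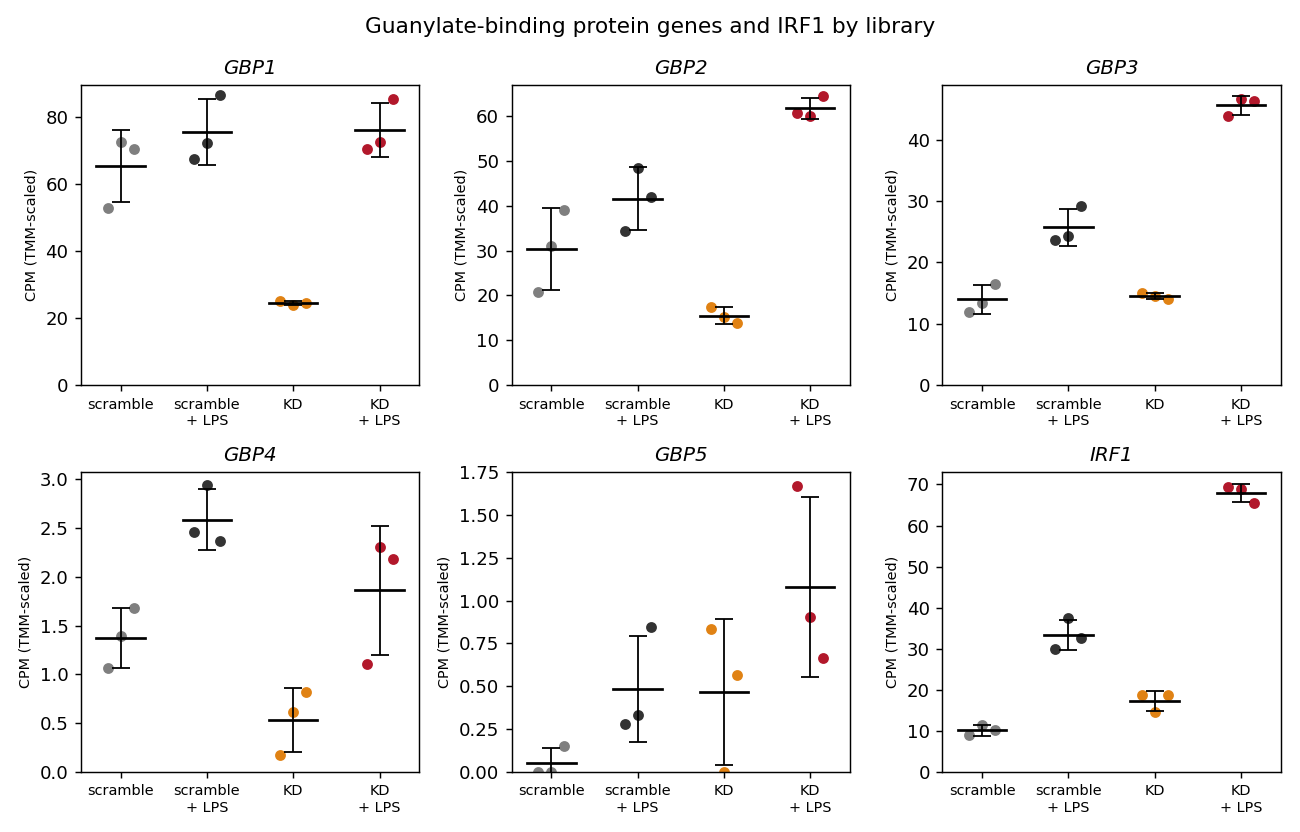
Levels of 5 GBP genes and IRF1 in CPM (vertical axis, linear from 0) in each library of the 4 groups, with each group's mean (long bar) and SD (capped line), n = 3. GBP1 and GBP2 are lowest in KD without LPS, GBP2, GBP3 and IRF1 are highest in KD with LPS, and GBP4 and GBP5 stay at or below 2.94 CPM in every library.

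Among the transcription factors, IRF1 and STAT2 were higher in linc-ADAIN KD and higher with LPS in every comparison. IRF1, a factor induced by NF-κB and by interferons that in turn activates GBP genes, had 8.85, 11.5 and 10.1 CPM in scramble and 18.7, 14.5 and 18.7 CPM in KD. With LPS it reached 30, 37.4 and 32.7 CPM in scramble and 69.4, 68.9 and 65.5 CPM in KD. No 2 of the 4 groups overlapped, in the order scramble, KD, scramble with LPS and KD with LPS. LPS raised IRF1 by 1.73 ± 0.13 in scramble (adjusted p = 3.9e-06) and by 1.98 ± 0.12 in KD (adjusted p = 2.6e-08), and these effects differed by 0.26 ± 0.17 (interaction, adjusted p = 0.63). KD raised it by 0.77 ± 0.15 without LPS (adjusted p = 0.0021) and by 1.03 ± 0.10 with LPS (adjusted p = 4.0e-06). IRF1 shares 27.1% of its 31-base stretches with other genes, 12.5% with IRF1-AS1, which overlaps it.

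STAT2, the partner of IRF9 on the ISRE, moved by less. It had 38.7, 40.0 and 36.4 CPM in scramble, 44.9, 50.8 and 51.5 CPM in scramble with LPS, 55.8, 60.1 and 54.8 CPM in KD and 71.8, 75.6 and 65.0 CPM in KD with LPS. Again no 2 groups overlapped. The KD differences were 0.57 ± 0.08 without LPS (adjusted p = 0.00029) and 0.53 ± 0.09 with LPS (adjusted p = 0.00083), and the LPS differences were 0.37 ± 0.09 in scramble (adjusted p = 0.016) and 0.32 ± 0.09 in KD (adjusted p = 0.036).

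IRF7, which amplifies type I interferon production, had 3.72, 5.19 and 3.24 CPM in scramble and 5.34, 7.63 and 5.60 CPM with LPS. In KD it had 2.82, 1.73 and 3.09 CPM without and 3.96, 7.18 and 5.59 CPM with LPS. LPS libraries lay above the untreated ones in both populations, and the rise was called in KD (1.14 ± 0.30, adjusted p = 0.024) but in scramble only with the replicate block (0.62 ± 0.23, adjusted p = 0.099, and 0.024 with the block). The interaction was 0.53 ± 0.40 (adjusted p = 0.69). IRF9 was called in no test, with 6.33 to 11.7 CPM over the 12 libraries, and 92.9% of its 31-base stretches are also part of an annotated readthrough gene.

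In the IFIT family, whose products bind foreign RNA ends and block their translation, LPS raised 2 of 4 genes in scramble (5.9% of all genes). IFIT2 had 2.94, 3.02 and 3.91 CPM in scramble and 9.69, 8.62 and 9.30 CPM with LPS, and in KD 5.99, 7.28 and 11.1 CPM without and 10.1, 14.3 and 14.8 CPM with LPS. All KD libraries lay above their scramble counterparts, and KD with and without LPS overlapped. LPS changed IFIT2 by 1.5 ± 0.18 in scramble (adjusted p = 0.00019) and by 0.68 ± 0.22 in KD (adjusted p = 0.068), with an interaction of -0.80 ± 0.31 (adjusted p = 0.30). The difference between KD and scramble was 1.31 ± 0.25 without LPS (adjusted p = 0.0019) and 0.50 ± 0.17 with LPS (adjusted p = 0.045).

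IFIT3, which stabilises IFIT1 in the same complex, had 7.52, 6.77 and 6.79 CPM in scramble and 19.3, 16.4 and 21.8 CPM with LPS. In KD it had 6.91, 9.91 and 8.69 CPM without and 13.8, 15.3 and 18.8 CPM with LPS. The LPS libraries lay above the untreated ones in both populations, and KD overlapped with scramble in both conditions. LPS raised IFIT3 by 1.46 ± 0.14 in scramble (adjusted p = 2.8e-05) and by 0.90 ± 0.18 in KD (adjusted p = 0.0032). The interaction was -0.55 ± 0.23 (adjusted p = 0.36). IFIT1 stayed between 0.664 and 2.64 CPM and was not called. IFIT5 lay between 38.7 and 57.6 CPM and was lower in KD with LPS by a log2 value of -0.35 ± 0.10 (adjusted p = 0.022).

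The IFITM genes were not called in either LPS comparison, and 2 of the 3 were higher in KD in both conditions. Of all genes, 12.1% were called higher in KD without LPS and 12.7% with LPS. IFITM1 had 2.83, 4.83 and 5.8 CPM in scramble, 5.29, 5.94 and 7.27 CPM in scramble with LPS, 11.7, 11.4 and 12.3 CPM in KD and 13.9, 15.5 and 14.1 CPM in KD with LPS. The lowest KD library exceeded the highest scramble library. The differences were 1.40 ± 0.23 (adjusted p = 0.00069) and 1.23 ± 0.17 (adjusted p = 7.9e-05) without and with LPS. IFITM3 rose by 0.40 ± 0.09 (adjusted p = 0.0074) and 0.35 ± 0.10 (adjusted p = 0.024), from 345 to 407 CPM in scramble to 453 to 553 CPM in KD without LPS. IFITM2 had 115 to 144 CPM in all libraries. Short transcripts with much shared sequence limit these values: 59.4% of the 31-base stretches of IFITM1, 46.8% of IFITM3 and 17.0% of IFITM2 occur in other genes too.

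The OAS genes make the second messenger that activates RNase L. OAS1 had 23.2, 22.4 and 21.9 CPM in scramble and 28.8, 23.4 and 20 CPM with LPS, against 17.8, 17.2 and 15.1 CPM in KD and 10.9, 11.8 and 10.4 CPM in KD with LPS. It was the only one of the 44 genes tested whose fall with LPS in KD was called, by a log2 value of -0.59 ± 0.14 (adjusted p = 0.012), while the scramble groups overlapped (0.11 ± 0.13, adjusted p = 0.66). The interaction was -0.69 ± 0.18 (adjusted p = 0.087). KD lay below scramble by -0.43 ± 0.11 without LPS (adjusted p = 0.011) and by -1.12 ± 0.15 with LPS (adjusted p = 7.1e-05).

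OASL, an OAS-like protein without the enzyme activity, had 5.30, 4.11 and 3.03 CPM in scramble, 2.30, 2.21 and 1.38 CPM in KD, 3.35, 2.77 and 2.09 CPM in scramble with LPS and 3.11, 1.94 and 1.23 CPM in KD with LPS. The KD libraries lay below the scramble libraries without LPS (-1.07 ± 0.30, adjusted p = 0.019), and all other comparisons overlapped. OAS2 (5.01 to 8.20 CPM) and OAS3 (7.17 to 13.6 CPM) were not called. ISG20, an exonuclease that degrades viral RNA, went the other way. It had 0.437, 0.494 and 0.580 CPM in scramble, 0.460, 0.231 and 0.375 CPM in scramble with LPS, 0.893, 1.52 and 2.94 CPM in KD and 1.95, 1.79 and 1.58 CPM in KD with LPS. All KD libraries lay above all scramble libraries, with counts of 7 to 27 in scramble and of 31 to 119 in KD. The differences were 1.83 ± 0.51 (adjusted p = 0.019) and 2.30 ± 0.53 (adjusted p = 0.0051), the largest rise by KD with LPS in the set.

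In the ISG15 system, USP18, the protease that removes ISG15 and blocks the type I interferon receptor, had 2.71, 3.61 and 4.04 CPM in scramble and 1.64, 2.04 and 1.68 CPM in KD. With LPS it had 3.94, 3.17 and 3.42 CPM in scramble and 2.55, 1.08 and 1.90 CPM in KD. KD lay below scramble in both conditions, by -0.94 ± 0.27 (adjusted p = 0.023) and -0.94 ± 0.35 (adjusted p = 0.068). USP18 shares 62.3% of its 31-base stretches with other genes, 33.0% with USP41, so the division of its reads is uncertain. HERC6 had 0.968 to 3.93 CPM and was not called.

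The MX proteins are dynamin-like GTPases that trap viral capsids. MX1, often used as a marker of type I interferon signalling, stayed between 0.46 and 1.58 CPM. MX2 had 9.04, 10.3 and 9.52 CPM in scramble and 9.87, 11.7 and 11.1 CPM with LPS, against 4.75, 8.50 and 6.30 CPM in KD and 6.08, 4.82 and 5.38 CPM in KD with LPS. Every KD library lay below every scramble library. The difference was called with LPS (-1.0 ± 0.18, adjusted p = 0.00077) and not without (-0.55 ± 0.20, adjusted p = 0.063).

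The remaining antiviral and interferon-induced genes were mixed in direction, with 5 of 12 called higher and 1 lower in KD without LPS (12.1% and 15.1% of all genes). XAF1, which counteracts an inhibitor of apoptosis, had 1.71, 3.08 and 2.2 CPM in scramble, 3.14, 1.92 and 3.84 CPM in scramble with LPS, 5.65, 5.11 and 5.28 CPM in KD and 3.31, 4.32 and 2.64 CPM in KD with LPS. KD stood apart from scramble only without LPS (1.20 ± 0.25, adjusted p = 0.0038), and with LPS the groups overlapped (0.20 ± 0.33, adjusted p = 0.72). As 74.0% of its 31-base stretches also belong to the annotated PRAL, the level of XAF1 is uncertain. EPSTI1 had 1.77, 1.48 and 1.31 CPM in scramble and 3.72, 3.66 and 2.20 CPM in KD, and 2.43, 2.25 and 2.46 CPM in scramble and 2.55, 3.38 and 2.07 CPM in KD with LPS. It too was called only without LPS (1.07 ± 0.31, adjusted p = 0.022).

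IFI44 and IFI44L, neighbours on chromosome 1 between 78619902 and 78664078, were both higher in KD. IFI44 had 7.08, 5.91 and 7.13 CPM in scramble, 9.46, 9.87 and 9.98 CPM in scramble with LPS, 8.24, 10.2 and 9.80 CPM in KD and 12.3, 10.8 and 14.0 CPM in KD with LPS. Its groups did not overlap in any of the 4 comparisons. LPS in scramble (0.56 ± 0.15, adjusted p = 0.026) and KD without LPS (0.50 ± 0.16, adjusted p = 0.039) were called. IFI44L had 12.9, 10.8 and 12.5 CPM in scramble, 16, 10.3 and 11.9 CPM in scramble with LPS, 14.0, 22.3 and 18.3 CPM in KD and 17.7, 20.2 and 20.9 CPM in KD with LPS. KD raised it by 0.60 ± 0.16 (adjusted p = 0.017) and 0.62 ± 0.16 (adjusted p = 0.012), while both LPS comparisons overlapped.

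IFI6, a mitochondrial and endoplasmic reticulum protein that protects cells from apoptosis, was lower in KD, by -0.51 ± 0.11 (adjusted p = 0.0057) without and -0.54 ± 0.12 (adjusted p = 0.0052) with LPS, from 20.1 to 22.9 CPM in scramble to 14.2 to 16.6 CPM in KD without LPS. IFI16 was lower by -0.33 ± 0.08 (adjusted p = 0.011) and -0.35 ± 0.08 (adjusted p = 0.0046). SAMD9 was lower in KD than in scramble with LPS (-0.53 ± 0.11, adjusted p = 0.0030). RSAD2, an enzyme that makes a chain-terminating nucleotide, had 0 counts in every scramble library without LPS. It had 57, 14 and 10 counts in the KD libraries, 1, 5 and 25 in scramble with LPS and 6, 21 and 10 in KD with LPS. Against 3 counts per library, its mean in KD was at least 12-fold higher than in scramble, and the difference was called (adjusted p = 0.0066). RSAD2 passed the count minimum of that fit only through the KD libraries, so the call adds no support. It is among the 11 genes called higher in KD without LPS and among the 6 of at least 2-fold. Without KD replicate 1 the bound was 4.26-fold and the call was lost (adjusted p = 0.050). CMPK2, IFI27, IFI35, SAMD9L, TRIM22 and the RNA sensor IFIH1 were called in no comparison, SAMD9L passing with LPS in scramble under the block only (0.46 ± 0.13, adjusted p = 0.012).

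The gene PARP9 and its partner DTX3L, a ubiquitin ligase complex that enhances interferon signalling, and the nearby PARP14 lie on chromosome 3 between 122527924 and 122730840. DTX3L had 41.8, 43.4 and 44.6 CPM in scramble and 28.5, 31.8 and 28.7 CPM in KD. With LPS it had 51.2, 49.1 and 49.9 CPM in scramble and 27.2, 27.2 and 29 CPM in KD. Every KD library lay below every scramble library, by -0.54 ± 0.09 without LPS (adjusted p = 0.00069) and -0.85 ± 0.09 with LPS (adjusted p = 1.1e-05). PARP14, an ADP-ribosyltransferase, had 34.1, 40.0 and 36.5 CPM in scramble, 47.6, 56.4 and 55.7 CPM in scramble with LPS, 26.4, 29.3 and 22.3 CPM in KD and 34.6, 33.9 and 33.5 CPM in KD with LPS. KD with LPS lay below scramble with LPS and did not reach the highest scramble libraries without it.

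PARP14 was lower in KD by -0.50 ± 0.11 (adjusted p = 0.0069) and -0.65 ± 0.10 (adjusted p = 0.00021), and LPS raised it by 0.54 ± 0.10 in scramble (adjusted p = 0.0028) and 0.38 ± 0.12 in KD (adjusted p = 0.049). PARP9 had 17.8 to 33.5 CPM and was lower in KD with LPS (-0.43 ± 0.12, adjusted p = 0.016). As PARP9 and DTX3L overlap at their starts on opposite strands and the strand setting of the counting is not given in the sources used here, reads from the overlap cannot be assigned with certainty. Of the immunoproteasome subunits, PSMB8 was not called, and PSMB9 was lower in KD with LPS (-0.44 ± 0.14, adjusted p = 0.033). With LPS in scramble, PSMB9 had 0.42 ± 0.13 (adjusted p = 0.055, and 0.024 with the block).

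**Figure D3:**
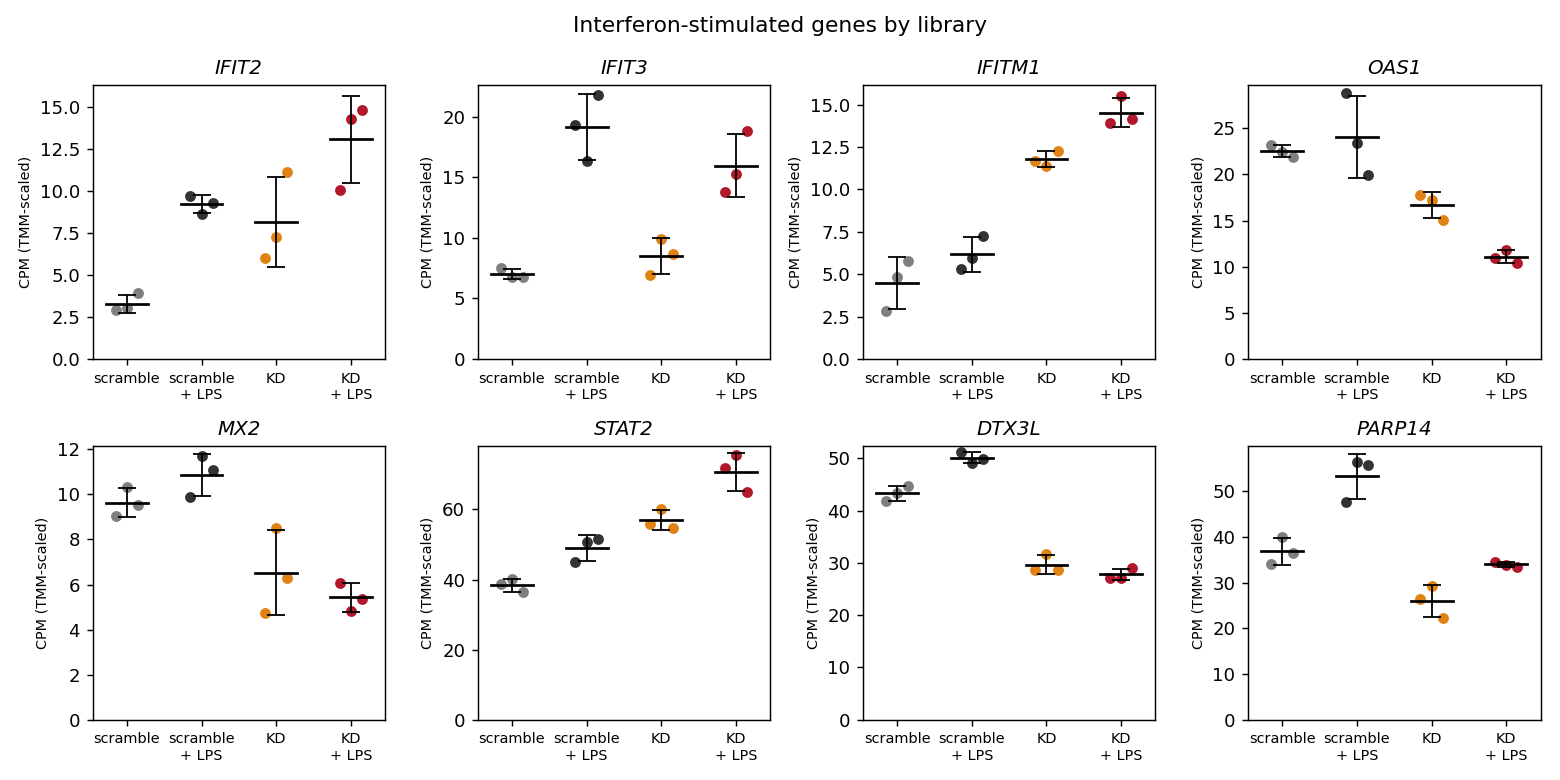
Levels of 8 interferon-stimulated genes in CPM (vertical axis, linear from 0) in each library of the 4 groups, with mean (long bar) and SD (capped line), n = 3. IFIT2 and IFIT3 are higher with LPS in scramble, IFITM1 and STAT2 are higher in KD, and OAS1, MX2, DTX3L and PARP14 are lower in KD than in scramble in each condition.

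When the LPS effects of the 2 populations were compared in 1 fit over the 12 libraries, the effect was larger in KD for 3 of 46 genes (6.52%, against 0.943% of all genes), and these were GBP1, GBP2 and GBP3. The effect was called smaller in KD for 0 genes in edgeR's test (0.332% of all genes), while 6 genes had an unadjusted p under 0.05 in that direction (IFIT2, IFIT3, OAS1, RSAD2, XAF1 and DTX3L) and DESeq2 called 1. The median interaction of the set was -0.10, beside 0.0096 over all genes. Altogether 31 of the 46 interactions were negative. IRF1 lay near the diagonal, with nearly equal log2 effects in both populations.

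**Figure D4:**
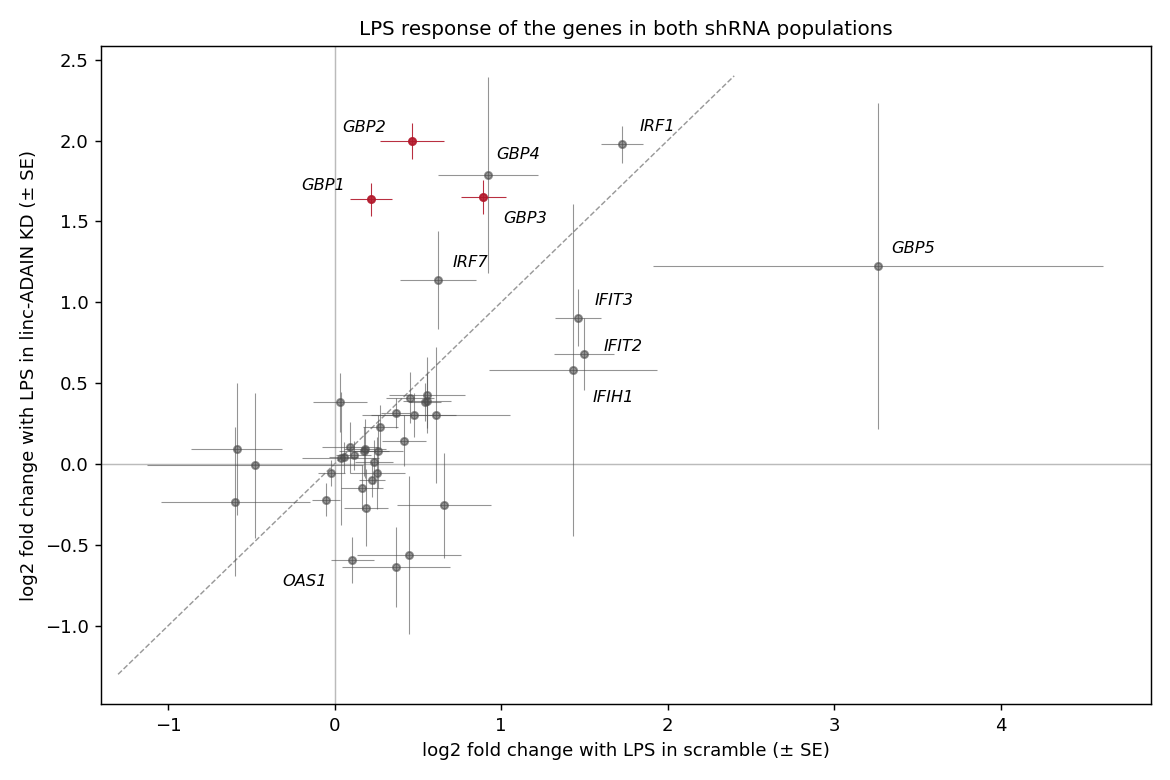
Log2 fold change with LPS in scramble (horizontal) against that in linc-ADAIN KD (vertical), with standard errors, for the 41 genes with a mean of at least 1 CPM in a group, where the dashed line marks equal effects. GBP1, GBP2 and GBP3 (red, called in the interaction) lie above the line at 1.64, 1.99 and 1.65 in KD against 0.22, 0.47 and 0.89 in scramble, while IFIT2 and IFIT3 lie below it.

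The other genes of the pathway were taken from a list of 47 found in the table, running from the LPS receptor to interferons, their receptors and the sensors of nucleic acids. Of these, 3 of 34 tested were higher and 4 lower in KD without LPS (12.1% and 15.1% of all genes), and 6 and 9 of 35 with LPS (12.7% and 14.2%). LPS raised 9 and lowered 4 of 35 in scramble (5.9% and 8.38% of all genes), and raised 7 and lowered 1 of 35 in KD (5.32% and 6.03%). The interaction called 1 of 36, TLR4 (0.943% of all genes in that direction). Among the ligands, IFNB1, IFNA1, IFNA2, IFNK, IFNG, IFNL1, IFNL2 and IFNL3 had 0 counts in all 12 libraries, so no interferon beta or gamma transcript was detectable at this depth, where 0 counts allow up to 3 counts per library. IFNE, which is expressed constitutively in epithelia, had 45 to 103 counts per library and was not called.

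The receptors for the type I and type II interferons rose with LPS in both populations. IFNGR2, the signalling chain of the interferon gamma receptor, had 55.6, 58.7 and 57.3 CPM in scramble and 141, 151 and 159 CPM with LPS. In KD it had 83.4, 76.3 and 76.0 CPM and, with LPS, 230, 220 and 228 CPM. No 2 groups overlapped, and the LPS effects were 1.41 ± 0.08 (adjusted p = 4.5e-07) and 1.52 ± 0.08 (adjusted p = 5.1e-09). IFNAR2, a chain of the type I receptor, rose from 20.1 to 21.2 CPM to 43.3 to 45.4 CPM in scramble (1.11 ± 0.08, adjusted p = 5.5e-06). In KD it rose from 21.7 to 25.3 CPM to 56.6 to 66.1 CPM (1.41 ± 0.11, adjusted p = 4.5e-07). IFNAR1, IFNGR1 and the kinase JAK2 were also called in both, with log2 values of 0.58, 0.71 and 0.99 in scramble and 0.70, 0.42 and 1.07 in KD.

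The kinase JAK1, which serves both receptors, was lower in KD by -0.51 ± 0.07 (adjusted p = 0.00016) and -0.58 ± 0.07 (adjusted p = 1.9e-05). The inhibitor SOCS3 was lower in KD with LPS (-0.71 ± 0.15, adjusted p = 0.0035). Without LPS it was lower by -0.42 ± 0.14 (adjusted p = 0.047), a call lost in 8 of 13 alternative runs. IL10RB, a chain of the interferon lambda receptor, was lower in KD with LPS (-0.67 ± 0.12, adjusted p = 0.00076). TBK1, the kinase of IRF3, was higher in KD without LPS (0.44 ± 0.11, adjusted p = 0.0090).

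At the LPS receptor, TLR4 had 16.3, 15.1 and 11.5 CPM in scramble and 9.05, 7.40 and 7.22 CPM with LPS, against 12.4, 13.4 and 15.2 CPM in KD and 12.6, 18.8 and 16.7 CPM in KD with LPS. Scramble with LPS lay below all other groups. LPS lowered TLR4 by -0.84 ± 0.16 in scramble (adjusted p = 0.0045), against 0.23 ± 0.16 in KD (adjusted p = 0.43), with an interaction of 1.09 ± 0.24 (adjusted p = 0.030), a call that was lost in 8 of the 12 fits that left out a library. Its coreceptor CD14 was likewise lower with LPS in scramble (-1.85 ± 0.49, adjusted p = 0.026) and higher in KD than in scramble with LPS (2.69 ± 0.51, adjusted p = 0.0014), at 9 to 117 counts per library. Its interaction was not called (2.01 ± 0.61, adjusted p = 0.14). The fall in scramble was lost in each fit that left out a library except the one without scramble LPS replicate 2. The chemokine CXCL10, induced by interferons and by NF-κB, had 0 counts in all 6 libraries without LPS, 5, 2 and 4 counts in scramble with LPS and 16, 82 and 36 counts in KD with LPS. Against 3 counts per library, LPS raised it at least 16.1-fold in KD (adjusted p = 0.0015), and at least 11.9-fold without KD LPS replicate 2. CXCL10 passed the count minimum of that fit only through the LPS libraries, so that call adds no support. KD exceeded scramble with LPS by 3.54 ± 0.83 (adjusted p = 0.0058), which was lost without KD LPS replicate 2 (adjusted p = 0.064).

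**Figure D5:**
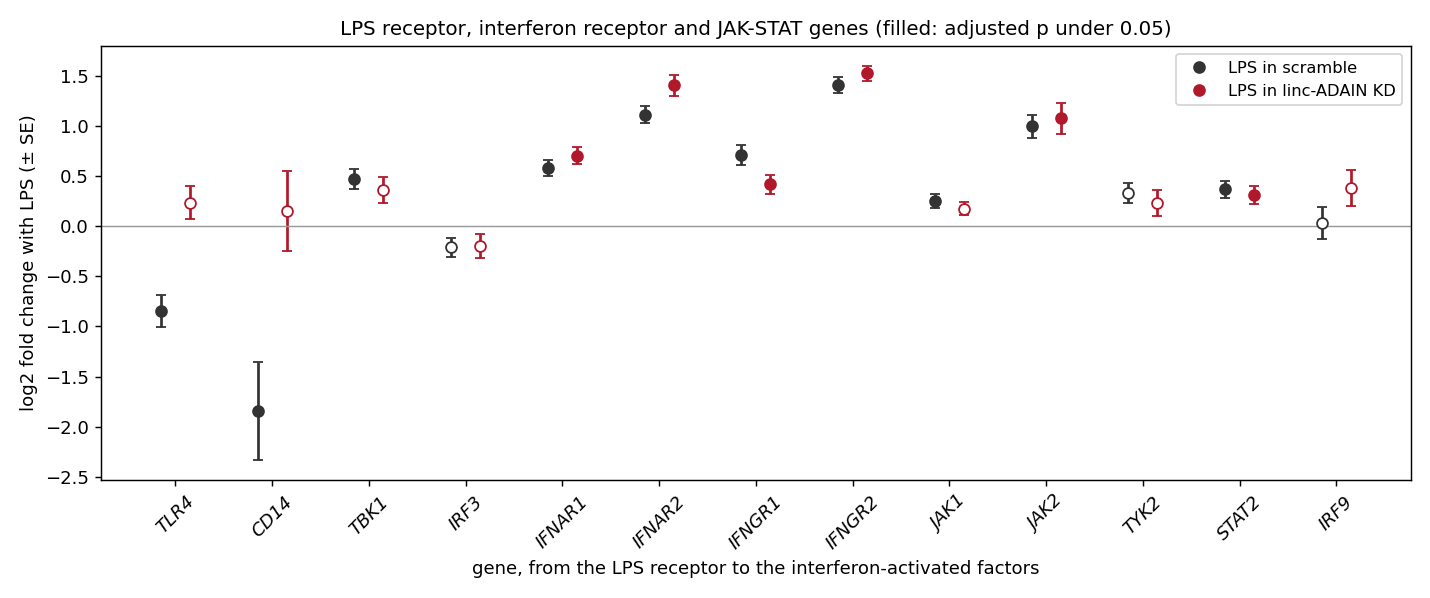
Log2 fold change with LPS (points, with standard errors) in scramble (black) and in linc-ADAIN KD (red) for 13 genes ordered from the LPS receptor to the interferon-activated factors, filled where the adjusted p was under 0.05. The interferon receptor chains and JAK2 are higher with LPS in both populations, whereas the scramble values of TLR4 and CD14 are called lower, at -0.84 and -1.85, beside 0.23 and 0.15 in KD, neither called.

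Of the adipocyte markers, LPL and LEP were near absent, with at most 82 and 21 counts in a library, and the other 6 were present in the scramble libraries. The marker list moved with the hairpin. Summed over 8 genes (ADIPOQ, PLIN1, FABP4, LPL, CIDEC, PPARG, CEBPA and LEP) it was 2798 to 3919 CPM in scramble, 3328 to 3768 CPM in scramble with LPS, 558 to 1653 CPM in KD and 467 to 1087 CPM in KD with LPS. In KD 5 of 8 were lower without LPS and 6 of 8 with LPS (15.1% and 14.2% of all genes). For LPS, 0 of 8 were called in either population (medians 0.06 and -0.63). Of 7 stromal markers 3 were higher and 3 lower in KD in each condition, THY1 by -2.37 ± 0.11 and LUM by 2.02 ± 0.10 without LPS. Of all genes, 12.1% were higher and 15.1% lower without LPS, and 12.7% and 14.2% with LPS. The stromal list summed to 5132 to 6163 CPM in scramble and 6787 to 7760 CPM in KD. With LPS it summed to 4859 to 5507 CPM in scramble and 8010 to 9000 CPM in KD. The part of these shifts in the KD differences was not tested. Several defining markers of immune cells were at or near 0: TYROBP, AIF1, CD3E, NKG7 and GZMB had 0 counts in all 12 libraries, PTPRC 0 to 12 and CLEC4C 0 to 2. The plasmacytoid dendritic list (CLEC4C, TCF4 and GZMB) summed to 30.6 to 49.0 CPM over the libraries, nearly all of it TCF4, which is also expressed outside that cell type and was not called in any test. The macrophage and leukocyte list summed to 58.2 to 61.9 CPM in scramble and 89.4 to 119 CPM in KD, and this rise lay in CD163 (3.99 ± 0.20, adjusted p = 9.8e-08), while CD68 was lower (-0.78 ± 0.09, adjusted p = 5.3e-05). Of the endothelial markers, VWF was lower in KD (-2.12 ± 0.21) and CDH5 had at most 3 counts.

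Single libraries decided several of the calls, while those of GBP1, GBP2, IRF1, IFIT3, IFITM1, DTX3L and MX2 held without any 1 library. For KD without LPS, the calls of EPSTI1, IFI16, IFI44, IFI44L, ISG20, OASL and USP18 were lost without scramble replicate 2, with adjusted p from 0.06 to 0.15, and 7 genes were then called higher in place of 11. Leaving out scramble replicate 1 lost IFI44, ISG20 and OASL, and leaving out scramble replicate 3 lost EPSTI1, IFI44 and USP18. Without KD replicate 1 the losses were EPSTI1, USP18 and RSAD2 (adjusted p = 0.050), without KD replicate 2 EPSTI1, IFI44 and IFI44L, and without KD replicate 3, the library with the lowest adipocyte markers among those without LPS, IFI44, ISG20 (1.27, adjusted p = 0.13), OASL and USP18.

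With LPS, the KD differences of IFIT2 and PSMB9 were lost in 5 and 4 of the 6 fits that left out a library, with adjusted p up to 0.16 and 0.11. IFIT5 was lost in 4 fits, IFITM3 and PARP9 in 3 and IFI44L only without scramble LPS replicate 3. For LPS in scramble, IFI44 was lost without scramble replicate 1 or 2 or scramble LPS replicate 2 or 3, and STAT2 without scramble replicate 3 or scramble LPS replicate 3. For LPS in KD, PARP14 was lost in 5 fits, STAT2 in 4, IRF7 in 3 (without KD replicate 2, KD LPS replicate 2 or KD LPS replicate 3) and OAS1 in 2 (without KD replicate 1 or KD LPS replicate 3). The count of genes raised by LPS in KD fell from 8 to 5 without KD LPS replicate 2.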

How the data were processed

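The authors deposited 1 table of estimated counts per gene, made with bcl2fastq 2.19 and kallisto 0.44.0 per the labels, which also name DESeq2 1.32.0. The annotation release and the strand setting are not given in the sources used here. The estimated counts were rounded to whole numbers, and a row without a gene name (0.235 to 0.306% of each library) was left out. In R 4.3.3, genes with at least 10 counts over the libraries of a fit were scaled by TMM and tested with edgeR 4.0.16 (quasi-likelihood F test, Benjamini-Hochberg adjustment), using the 6 libraries of each comparison or all 12 for the interaction. The code was tested on simulated data. Positions, canonical transcripts and shared 31-base stretches came from GENCODE 44.

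Values in every library were given for called members with a mean of at least 1 CPM in a group, at most 20 by largest absolute log2 fold change, and for those with a called interaction. The library values of GBP4 and RSAD2, outside that rule, were added after their values were seen. IFNB1, CXCL10 and the called pathway genes, at most 6 per comparison by absolute log2 fold change, were also named, and the others enter counts only. A further gene was left out of the pathway list and is not reported here. The members and lists were chosen with earlier results of these data known. Alternatives were DESeq2 1.42.0, library-size scaling, other filters, 1 fit over 12 libraries, a 2-fold limit, a replicate block and leaving out each library. Deviations of same-numbered libraries correlated at 0.122 to 0.323 between scramble and scramble LPS, so the numbers were taken to pair the samples there. In no other comparison did all 3 pairs exceed 0.1, with 0.077 to 0.325 between scramble LPS and KD LPS. Over all groups the median was 0.0019 for the 18 same-numbered pairs and 0.031 for the 36 others. The pairing is therefore uncertain. Totals of 28381782 to 53837400 counts per library limit genes with few counts.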

Additional observations from a re-analysis of the deposited data

Results flagged for a closer look

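The LPS effect differed between the linc-ADAIN KD and scramble populations by a test of the difference itself for 3 guanylate-binding genes. The log2 difference of the effect, KD minus scramble, was 1.43 for GBP1, 1.54 for GBP2 and 0.77 for GBP3 (edgeR interaction, adjusted p = 0.00024, 0.0024 and 0.032). Over the fits that left out 1 library, the difference ranged from 1.34 to 1.56 for GBP1 and from 1.32 to 1.75 for GBP2, each past the threshold. That of GBP3 ranged from 0.63 to 0.87, and it was not past the threshold in 10 of 12 such fits.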

How the results depend on the processing

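Of 102 calls for single genes of the set and its pathway, 64 held under every alternative run, 38 were lost at least once and 0 reversed. With a limit of 2-fold added, the counts of the set became 6 higher and 2 lower for KD without LPS, 3 and 2 for KD with LPS, 3 higher for LPS in scramble, and 5 higher and 0 lower for LPS in KD. Leaving out single libraries gave 7 to 10 higher and 6 to 11 lower for KD without LPS, 6 to 9 and 7 to 9 with LPS, 5 to 9 higher for LPS in scramble, 5 to 7 higher and 0 to 1 lower for LPS in KD, and 0 to 1 with a smaller LPS effect in KD. A smaller LPS effect was called for 2 genes without the filter on low counts and for 1 by DESeq2. DESeq2 called 11 genes higher with LPS in scramble. The cause of these changes was not tested.

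Same-numbered libraries deviated together between scramble and scramble LPS (0.122 to 0.323). Between scramble LPS and KD LPS the 3 values were positive too (0.077 to 0.325), and every other comparison of 2 groups had at least 1 negative value. With the replicate block, 11 genes were higher with LPS in scramble in place of 7. Elsewhere the block lost IFI44 in KD without LPS (adjusted p = 0.071) and IFIT2 in KD with LPS (adjusted p = 0.059), and added MX2 in KD without LPS (adjusted p = 0.038) and, for LPS in KD, GBP4 (adjusted p = 0.019) and IFIT2 (adjusted p = 0.0025). It changed no other call of the set. Values that changed sign were not called, and ranged without single libraries from -0.042 to 0.19 for GBP3 in KD without LPS (negative without scramble replicate 1) and from -0.082 to 0.12 for GBP1 in KD with LPS (negative without scramble LPS replicate 1 or 2 or KD LPS replicate 3). Scaling by library size alone turned the split of all genes in KD without LPS from 1965 higher and 2446 lower to 2793 and 1757 (with LPS, from 2026 and 2266 to 2609 and 1796), moving the median from 0.02 to 0.13. Over all genes, larger and smaller LPS effects in KD numbered 162 and 57, against 306 and 169 by DESeq2 and 266 and 165 without the filter, and genes higher with LPS in scramble numbered 940, against 1447 with the block.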

Other observations

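The sensors of foreign nucleic acids, which lie upstream of interferon, were measured as a list of 10 genes. In KD without LPS 0 were called higher and 1 lower (12.1% and 15.1% of all genes), and with LPS 1 and 3 (12.7% and 14.2%). DDX58, which encodes the RNA sensor RIG-I, had 5.22, 6.43 and 4.73 CPM in scramble and 12.5, 10.5 and 9.84 CPM with LPS. In KD it had 4.98, 7.31 and 6.57 CPM without and 17.0, 11 and 11.2 CPM with LPS. LPS libraries lay above untreated ones in both populations, by 1.01 ± 0.17 (adjusted p = 0.0019) and 1.05 ± 0.21 (adjusted p = 0.0038). DHX58, a regulator of RIG-I, rose with LPS in scramble (0.88 ± 0.20, adjusted p = 0.012), which was lost without scramble replicate 2 or scramble LPS replicate 3. TLR3, the endosomal receptor for double-stranded RNA, was lower in KD by -0.87 ± 0.21 without LPS (adjusted p = 0.0079) and -1.32 ± 0.25 with LPS (adjusted p = 0.0012), the first of which was lost without scramble replicate 2. STING1, the adaptor of cytosolic DNA sensing, had 6.16, 7.73 and 7.17 CPM in scramble with LPS and 13.0, 13.9 and 12 CPM in KD with LPS, a difference of 0.89 ± 0.16 (adjusted p = 0.00089). LPS lowered STING1 in scramble by a log2 value of -0.53 (adjusted p = 0.047), a call lost in 4 of 13 alternative runs. In KD its change with LPS was not called. Its interaction of 0.79 ± 0.21 was not called (adjusted p = 0.091).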
